A study of Sus scrofa with 22 samples.

Results

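Atorvastatin was compared with no drug in the jejunal mucosa of Ossabaw pigs that all ate the heart healthy dietary pattern. The members were chosen by the diet label of each sample: 8 pigs labelled heart healthy plus statin (HHD_S) and 7 labelled heart healthy (HHD), 15 of the 22 samples. Ossabaw pigs are a breed that becomes obese and dyslipidaemic on rich diets, and the jejunal mucosa is the inner layer of the gut segment where most nutrients are absorbed. Both groups ate for 6 months a pattern rich in fibre, with fruit, vegetables, whole grains and unsaturated oils, with 38% of energy from fat, 47% from carbohydrate and 15% from protein. Both also received fish oil capsules of 1000 mg, holding 550 mg of eicosapentaenoic acid and 200 mg of docosahexaenoic acid, 3 times a week. HHD_S pigs additionally received atorvastatin, starting with 3 months at a daily 20 mg and then raised to 40 mg. Each library came from 1 pig. The study randomized 16 boars and 16 gilts, and the labels give neither the sex of each pig nor the hour at which its tissue was taken. A group of 7 further pigs (WD_S) entered the fit, mainly to estimate the spread. The group also entered the gene filter, the scaling of counts, the library pool term and the centring of the list scores given below. Its diet labels name a Western pattern plus statin, whereas the series' design text uses the prefix of its sample titles, ARST, for the Western pattern without drug, so whether these pigs received atorvastatin is uncertain and no value of theirs is given.

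Statins block the enzyme that makes mevalonate, the precursor of cholesterol and of the isoprenoids, which are lipid chains used in coenzyme Q, in dolichol and as membrane anchors of proteins. Cells that run short of sterol release the transcription factor SREBP2, which switches on the genes of sterol synthesis and uptake, whereas excess sterol activates the liver X receptors (LXR), which switch on sterol export. The intestine both makes cholesterol and absorbs it from food and bile, so the genes of synthesis, sensing, uptake and export are described first, then the users of isoprenoids, and then gene groups outside this pathway.

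Total unique exon read counts were 18.1 to 31.6 M in HHD and 17.8 to 22.7 M in HHD_S, a difference of means of -1.99 M (two-sided exact permutation test, p = 0.311, adjusted p = 0.806 over 3 library measures). Enterocyte markers were present in every library, with a summed level of 36091 to 64274 CPM (counts scaled to library size) in HHD and 25109 to 71168 CPM in HHD_S over 14 of 15 markers tested. Transcripts from the Y chromosome were present in 3 of 7 HHD and 4 of 8 HHD_S libraries. Library pools, named in the deposited files, were uneven: 5 HHD libraries were in pool 3 and 2 in pool 4, against 5 and 3 for HHD_S. Pigs numbered 2356 or higher (HHD 6 and 7, HHD_S 7 and 8) had identification numbers apart from the rest, and HHD 7, HHD_S 7 and HHD_S 8 had the lowest median correlations with other libraries of their comparison. WD_S 7 is also in that number range, and every fit without the pigs numbered 2356 or higher left it out too. HHD 5 and HHD_S 7 had values on the other group's side for clock and protein folding genes, as given below with the results of leaving each out.

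No gene passed the test. The edgeR quasi-likelihood test, adjusted by the Benjamini-Hochberg method over 13626 genes, made 0 calls (0%), and its smallest adjusted p was 0.9993. At an unadjusted p under 0.05 there were 247 genes (1.81%), of which 146 had higher means in HHD_S (1.07%) and 101 lower (0.741%). DESeq2 called 1 of 13612 genes (0.00735%), FOLH1B, and limma with quality weights called 0, with 1176 genes at an unadjusted p under 0.05. The direction of all genes was close to even: 52.6% had a log2 fold change above 0, and the median was 0.01 with quartiles of -0.08 and 0.10. All fold changes below are HHD_S over HHD on the log2 scale from the edgeR fit, and CPM are scaled by the trimmed mean of M values.

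The size of a difference that these 15 pigs leave possible was set by the 95% intervals. The interval lay within 2-fold in both directions for 93.1% of genes tested and within 1.5-fold for 71.8%. Among the 11860 genes whose mean log2 CPM was 1 or more, these shares were 96.2% and 80.1%. On counts simulated with the means and spread of the fit, 58.2% of 67 genes given a 1.5-fold change were called. Of 67 genes given a 2-fold change 89.6% were called, as were 93.9% of 66 given a 3-fold change and 11 unchanged genes. The adjustment is stricter where fewer genes change, so these rates depend on how many genes were changed. Where no gene was changed, the simulated counts gave 0 calls and 631 genes at an unadjusted p under 0.05, more than the 247 observed. The simulation thus did not match the real distribution of p values, and its detection rates are approximate and may be too high for these pigs. A gene without a call is therefore described by its interval and not as unchanged.

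Genes of cholesterol synthesis had no common direction. Of 21 genes listed 20 were tested, 9 had positive and 11 negative fold changes, none had an unadjusted p under 0.05 (against 1.81% of all genes), and the median was -0.02. The intervals of all 20 lay within 2-fold. Over 32 other settings the median was between -0.11 and 0.07 and kept its sign in 23. The summed level of the 20 genes had a median of 684 CPM in HHD (517 to 731) and 683 CPM in HHD_S (439 to 925), so the HHD_S range contained that of HHD.

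The early steps make mevalonate and turn it into isoprenoid units. HMGCS1 (ENSSSCG00000016872, chromosome 16, 27936225 to 27957261, Sscrofa11.1, RefSeq gene span) makes the substrate of the enzyme that statins block. Its lowest, median and highest values were 49.4, 71.1 and 99.6 CPM in HHD and 40.3, 59.8 and 130 CPM in HHD_S. The highest pig was HHD_S 7 and the lowest HHD_S 3, and the other values of the groups overlapped throughout. The group means were 68.9 ± 18.2 CPM in HHD (SD, n = 7) against 68.0 ± 28.4 CPM in HHD_S (SD, n = 8), and the log2 fold change was -0.02 (95% interval -0.46 to 0.43). MVD, which makes the isoprene unit from mevalonate, had 0.09 (-0.20 to 0.39), and IDI1, which converts that unit into its reactive isomer, -0.04 (-0.46 to 0.38). FDPS, which joins isoprene units, stood near 1 CPM, at 1.00 ± 0.200 CPM (SD, n = 7) and 1.24 ± 0.343 CPM (SD, n = 8), and had the highest fold change of the list, 0.28 (-0.18 to 0.74). GGPS1, which makes a longer isoprenoid chain, had -0.08 (-0.31 to 0.15).

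The later steps run from squalene to cholesterol. FDFT1, which makes squalene, had a log2 fold change of 0.06 (-0.33 to 0.45). SQLE (ENSSSCG00000005970, chromosome 4, 14669789 to 14700152) adds oxygen to squalene. It ranged from 6.79 to 17.2 CPM around a median of 10.8 in HHD, and from 5.55 to 23.0 CPM around 10.2 in HHD_S. Again HHD_S 7 was the highest pig, HHD_S 8 was the lowest, and the drug group spanned the whole range of the other. The fold change of SQLE was 0.09 (-0.52 to 0.71), with 0.32 within pool 3 and -0.38 within pool 4. CYP51A1, the demethylase of lanosterol, had -0.11 (-0.66 to 0.43), and MSMO1, the sterol methyl oxidase that follows it, 0.03 (-0.31 to 0.37). DHCR7, a reductase at the end of the route, had -0.04 (-0.58 to 0.51). NSDHL, a dehydrogenase between those steps, had the most negative value of the list, -0.20 (-0.48 to 0.08).

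**Figure D1:**
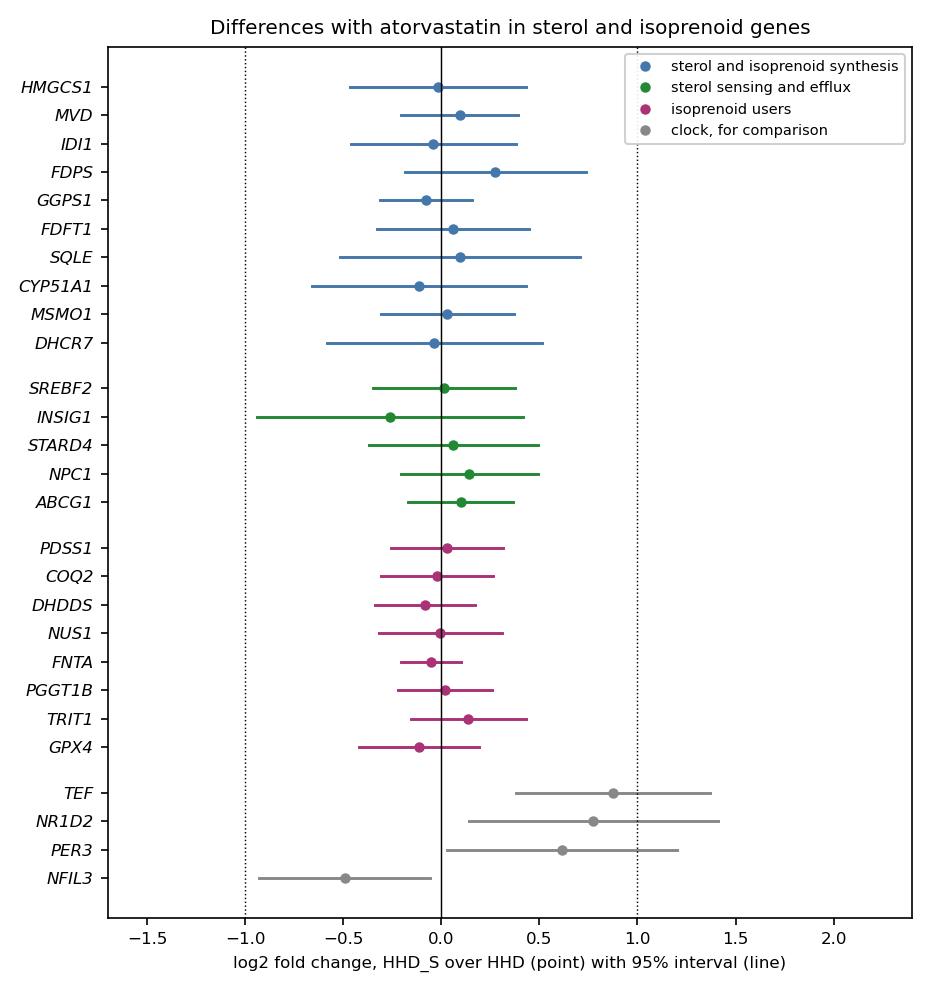
Log2 fold changes of HHD_S over HHD (x axis, points) with their 95% intervals (lines) for sterol and isoprenoid genes, grouped by colour, with 4 clock genes in grey at the bottom; dotted lines mark 2-fold. The sterol and isoprenoid points sit between -0.26 (INSIG1) and 0.28 (FDPS), and every one of their lines crosses 0.

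Sensors and transporters of sterol showed the same scatter. In the list of sensing, uptake and trafficking 16 of 17 genes were tested, 8 were positive and 8 negative, none had an unadjusted p under 0.05, and the median was 0.00. SREBF2, which encodes SREBP2, stood at 103 ± 20.6 CPM in HHD (SD, n = 7) against 104 ± 33.6 CPM in HHD_S (SD, n = 8), a fold change of 0.01 (-0.35 to 0.38). INSIG1 (chromosome 18, 2885494 to 2898758), which holds SREBP proteins back in the endoplasmic reticulum, had -0.26 (-0.94 to 0.42), and HHD 1, at 235 CPM, was far above the next pig of its group at 112 CPM. Without HHD 1 the value was 0.04. STARD4, a carrier of cholesterol between membranes, had 0.06 (-0.37 to 0.49), and NPC1, which releases cholesterol from lysosomes, 0.14 (-0.21 to 0.49). SCARB1, a lipoprotein receptor, varied widely among pigs, from 16.7 to 472 CPM in HHD and from 14.5 to 458 CPM in HHD_S, with a fold change of -0.30 (-1.60 to 1.00).

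Of 14 genes of sterol efflux and LXR 13 were tested, of which 5 were positive and 8 negative, with a median of -0.01 and none at an unadjusted p under 0.05. ABCG1, an exporter of cholesterol, stood between 14.6 and 20.0 CPM in HHD and 15.4 and 27.6 CPM in HHD_S, with HHD_S 8 alone above 20.6 CPM. Its fold change was 0.10 (-0.17 to 0.37). ABCA1, which loads cholesterol onto apolipoprotein A-I, had -0.37 (-0.85 to 0.11), a value that became -0.14 without HHD 4, the pig with 165 CPM. SREBF1, an LXR target that drives fatty acid synthesis, had -0.01 (-0.94 to 0.92) and ranged from 16.4 CPM in HHD_S 8 to 311 CPM in HHD_S 2.

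Genes that use isoprenoids had narrower intervals and small differences. For coenzyme Q synthesis 12 of 13 genes were tested (6 positive, 6 negative, median 0.01), and for dolichol and N-glycan precursors 17 of 22 (10 positive, 7 negative, median 0.02). None of these genes had an unadjusted p under 0.05, and all of their intervals lay within 2-fold. PDSS1, which builds the side chain of coenzyme Q, had 0.03 (-0.26 to 0.32), and NUS1, a subunit of the enzyme that makes the dolichol chain, -0.00 (-0.32 to 0.31). FNTA, the shared subunit of the prenyl transferases, stood between 40.9 and 48.1 CPM in HHD and between 37.1 and 50.7 CPM in HHD_S, with -0.05 (-0.21 to 0.10).

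Selenoproteins depend on an isopentenyl group on their transfer RNA. Of 20 listed genes 16 were tested, 5 positive and 11 negative, with a median of -0.04 and none at an unadjusted p under 0.05. TRIT1, the enzyme that adds the group, had 0.14 (-0.15 to 0.43) and GPX4, a peroxidase that protects membrane lipids, -0.11 (-0.42 to 0.19). GPX2, the peroxidase of the gut epithelium, was the exception in width: it ranged from 3.93 to 36.1 CPM in HHD and from 2.59 to 11.0 CPM in HHD_S, with a fold change of -0.92 (-1.89 to 0.05), and -0.63 without HHD 7. Genes of KLF2, nitric oxide and YAP had 2 positive and 8 negative members of 10 tested, a median of -0.19, and 0.14 within pool 4.

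Of 24 genes for statin uptake, metabolism and export 15 were tested, with 10 positive, 5 negative, a median of 0.09 and none at an unadjusted p under 0.05. CYP3A39, a pig member of the cytochrome family that oxidizes atorvastatin in humans, had medians of 1869 CPM in HHD and 2796 CPM in HHD_S. The lowest pig of each group, HHD 7 at 434 CPM and HHD_S 7 at 424 CPM, stood far below the others, which ranged from 1283 to 3002 CPM in HHD and from 1356 to 3757 CPM in HHD_S. Its fold change was 0.41 (-0.42 to 1.24), or a ratio of 1.33 (0.748 to 2.36). PON3, a lactonase that can hydrolyse statin lactones, ranged from 0.0341 to 8.62 CPM in HHD and from 0.0933 to 19.9 CPM in HHD_S, and 4 HHD_S pigs lay above every HHD pig. Its fold change of 1.59 had an interval from -0.39 to 3.58. ABCG2, which pumps drugs back into the lumen, had 0.09 (-0.34 to 0.52), and SLCO2B1, an uptake transporter, -0.02 (-0.38 to 0.34).

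Genes of the circadian clock had the largest share of small p values among the lists. The clock is a loop in which ARNTL and CLOCK switch on PER, CRY and NR1D genes whose products shut the loop down, and it drives the output factors DBP, TEF and HLF in opposition to NFIL3. All 22 listed genes were tested, 16 were positive and 6 negative, and the median was 0.20 against 0.01 over all genes. At an unadjusted p under 0.05 there were 5 higher members (1.07% of all genes) and 1 lower member (0.741% of all genes). The edgeR adjusted p of each was 0.9993, so no clock gene passed the test.

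The output factor TEF (ENSSSCG00000035152, chromosome 5, 7119354 to 7135171) gave the smallest p of the list. In HHD its values were 6.09, 4.32, 7.16, 4.40, 11.3, 5.90 and 5.19 CPM for pigs 1 to 7, and in HHD_S 13.1, 16.4, 11.0, 12.5, 12.8, 14.1, 6.36 and 6.86 CPM for pigs 1 to 8. All HHD_S pigs lay above the HHD median of 5.90 CPM, and the groups overlapped through HHD 5 on one side and HHD_S 7 and 8 on the other. The means were 6.33 ± 2.39 CPM (SD, n = 7) and 11.6 ± 3.46 CPM (SD, n = 8), a fold change of 0.88 (0.38 to 1.37, edgeR unadjusted p = 0.00136). It was 1.04 within pool 3 and 0.52 within pool 4, and 1.02 without the pigs numbered 2356 or higher. HLF, a related factor, had 0.61 (0.00 to 1.22), and DBP had 0.72 (-0.12 to 1.57) with only 0.08 within pool 4. NFIL3, which opposes them at the same DNA sites, had -0.49 (-0.93 to -0.06), with a median of 22.2 CPM in HHD and 14.3 CPM in HHD_S.

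Among the repressors of the loop, NR1D2 (chromosome 13, 10756954 to 10791219) also had its highest HHD value in HHD 5 and its lowest HHD_S value in HHD_S 7. It stood at 46.9, 42.5, 55.7, 36.5, 171, 61.1 and 67.1 CPM in HHD and at 82.0, 127, 152, 176, 117, 104, 67.4 and 105 CPM in HHD_S. Leaving HHD 5 aside, the lowest HHD_S pig (HHD_S 7) was level with the highest HHD pig. HHD 5 was set aside after its values were seen, which by itself enlarges the differences without it. The fold change was 0.77 (0.14 to 1.41), 1.23 without HHD 5, 1.13 within pool 3 and 0.07 within pool 4, where HHD 5 is 1 of 2 HHD pigs. PER3 had 0.62 (0.03 to 1.20), also 0.06 within pool 4 and 0.94 without HHD 5. NR1D1 had 1.01 (-0.09 to 2.12), with values up to 39.8 CPM in HHD 7 and 42.9 CPM in HHD_S 3. PER1 and PER2 had 0.41 (-0.20 to 1.03) and 0.47 (-0.15 to 1.10).

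The activators of the loop did not share that direction. ARNTL had -0.33 (-0.97 to 0.31) and 0.38 within pool 4, CLOCK -0.05 (-0.32 to 0.23) and NPAS2, a partner that can replace CLOCK, -0.17 (-0.60 to 0.26). CRY1, a repressor, had -0.19 (-0.41 to 0.04). BHLHE41, a repressor that binds the same boxes as CLOCK, had 0.47 (0.01 to 0.92). Outside the list, CIPC, an inhibitor of CLOCK, stood at 67.1 ± 14.7 CPM in HHD (SD, n = 7) against 91.2 ± 16.0 CPM in HHD_S (SD, n = 8), a fold change of 0.44 (0.13 to 0.74). CIRBP, a cold-inducible RNA binding protein with a daily rhythm in many tissues, had 0.51 (0.15 to 0.88), with 6 of 8 HHD_S pigs above the highest HHD pig and HHD_S 7 below the lowest. The median of the clock list was 0.30 within pool 3 and 0.08 within pool 4, and between 0.08 and 0.34 over 32 other settings, always positive. The labels used here give no hour of collection, and its part in these values was not tested.

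**Figure D2:**
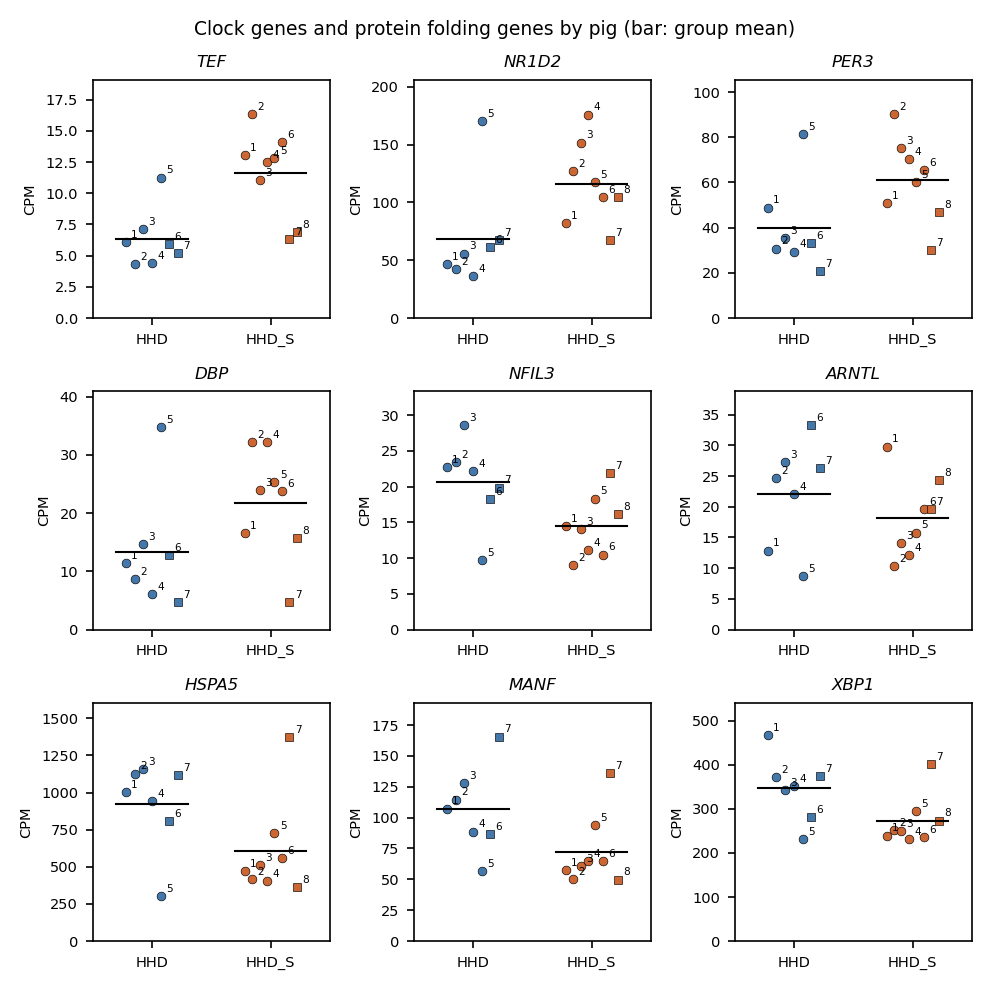
CPM (y axes, from 0) of 6 clock genes and 3 protein folding genes in each HHD pig (blue) and HHD_S pig (orange), numbered by replicate; squares are pigs numbered 2356 or higher and bars are group means. HHD 5 sits with the HHD_S pigs in TEF (11.3 CPM), NR1D2 (171 CPM) and HSPA5 (302 CPM), and HHD_S 7 sits with the HHD pigs in TEF (6.36 CPM) and HSPA5 (1371 CPM).

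Genes of protein folding in the endoplasmic reticulum had lower means in HHD_S in nearly all cases. The products of these genes fold secreted proteins, and many are induced by the unfolded protein response. All 24 listed genes were tested, 1 was positive and 23 negative, and the median was -0.21 against 0.01 over all genes. XBP1 and MANF had an unadjusted p under 0.05 (0.741% of all genes were lower at that level), and neither passed the edgeR test after adjustment. The median was -0.30 within pool 3 and -0.11 within pool 4 and stayed negative over 32 other settings.

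HSPA5 (ENSSSCG00000005601, chromosome 1, 265930044 to 265934959), the main chaperone of the compartment, stood at 1001, 1127, 1159, 942, 302, 808 and 1120 CPM in HHD and at 471, 415, 511, 404, 729, 558, 1371 and 365 CPM in HHD_S. The HHD pigs other than HHD 5 were above all HHD_S pigs other than HHD_S 7. HHD_S 7 was the highest of the 15 pigs and HHD 5 the lowest. Both were set apart after their values were seen, and leaving either out enlarges the difference by that choice. The fold change was -0.55 (-1.13 to 0.03), -0.84 without HHD_S 7 and -0.72 without HHD 5. MANF, a secreted folding factor, had -0.51 (-0.96 to -0.06), with -0.72 within pool 3 and -0.06 within pool 4. XBP1 (chromosome 14, 46011239 to 46016526), which drives the unfolded protein response and secretory cells, had medians of 352 CPM in HHD (232 to 468) and 251 CPM in HHD_S (231 to 403), and a fold change of -0.32 (-0.60 to -0.05). HYOU1 and HSP90B1, further chaperones, had -0.41 (-0.87 to 0.06) and -0.38 (-0.85 to 0.08), and PDIA4, a disulphide isomerase, -0.32 (-0.73 to 0.08). DDIT3, the factor of prolonged stress, had -0.16 (-0.63 to 0.31).

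Markers of goblet cells, which secrete mucus, also had lower means in HHD_S. In a bulk sample, fewer cells of a type and less RNA per cell cannot be told apart. Of 12 goblet cell markers 9 were tested, all 9 were negative, and the median was -0.34, with -0.34 and -0.26 within pools 3 and 4. The summed level of the 9 was 1858 to 4532 CPM in HHD (median 3981) and 1493 to 4095 CPM in HHD_S (median 2619), and HHD 5 had the lowest score of the HHD pigs, -0.55. The mean scores, 0.16 in HHD and -0.16 in HHD_S, differed by less than the SD between pigs within groups, 0.35. AGR2 (chromosome 9, 86042070 to 86053893), which helps mucins fold, stood between 130 and 475 CPM in HHD (median 319) and between 161 and 290 CPM in HHD_S (median 237). All HHD_S pigs lay below the HHD median, and HHD 6 was the lowest of the 15. Its fold change was -0.52 (-0.93 to -0.12, edgeR unadjusted p = 0.0137). MUC2, the main gel-forming mucin, had -0.31 (-0.93 to 0.32), CLCA1, secreted with mucus, -0.48 (-0.99 to 0.03), and SPDEF, a transcription factor of goblet cells, -0.38 (-0.79 to 0.02).

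Plasma cell markers, 13 of 13 tested, had 2 positive and 11 negative members and a median of -0.09, but 0.14 within pool 4. XBP1 is in both this list and the folding list. JCHAIN, which joins secreted antibodies, had -0.33 (-0.73 to 0.07) and MZB1, a chaperone of antibody secreting cells, -0.14 (-0.69 to 0.40). The scores of the folding list, the mean log2 CPM of its members centred per gene, were highest in HHD_S 7 (0.55) and HHD 7 (0.43), and the plasma cell scores were 0.62 and 0.31 in those pigs. The part of cell composition in the folding values was not tested.

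**Figure D3:**
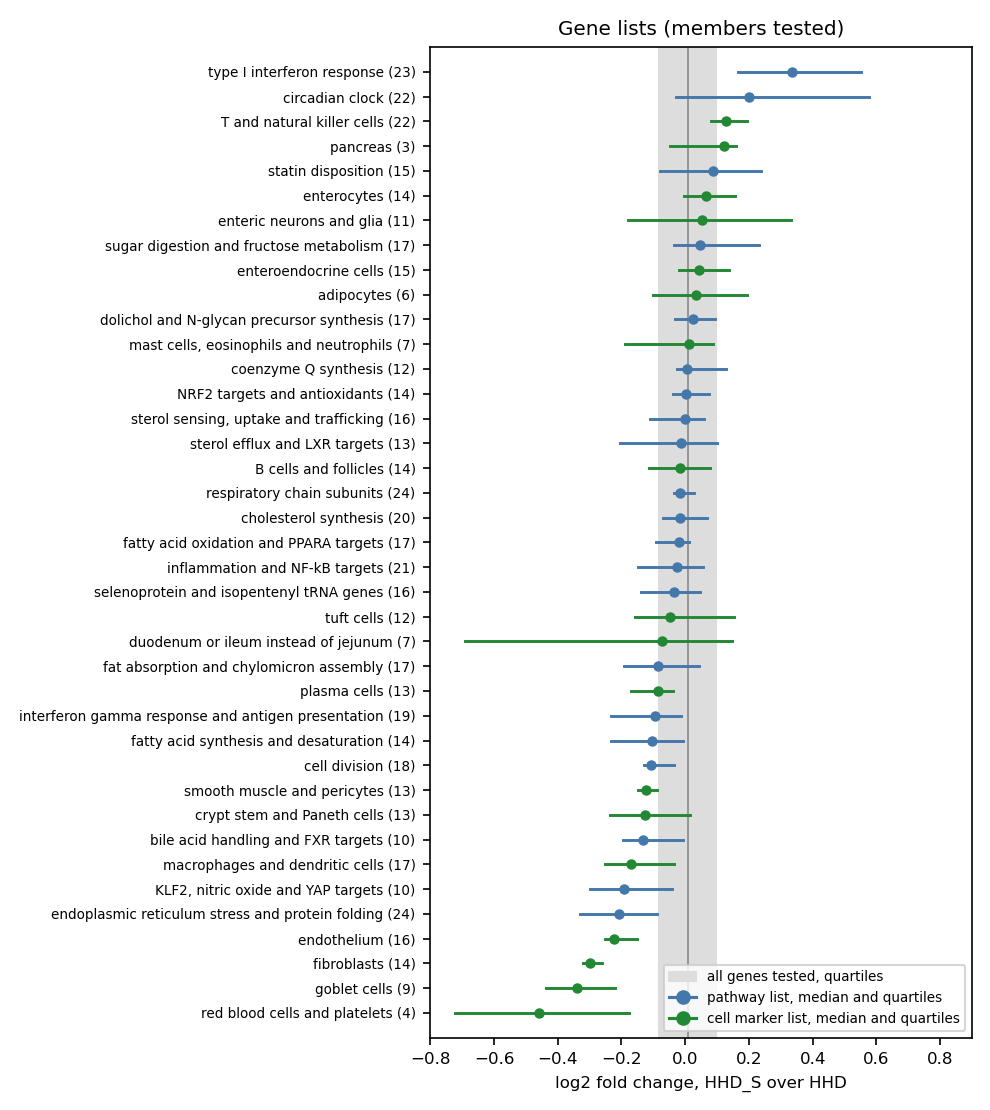
Median (point) and quartiles (line) of the log2 fold changes of HHD_S over HHD (x axis) for the gene lists, pathways in blue and cell markers in green, with the number of members tested in brackets and the quartiles of all genes as a grey band. The medians run from -0.46 (red blood cells and platelets, 4 genes) and -0.34 (goblet cells) to 0.20 (circadian clock) and 0.34 (type I interferon response).

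Markers of the connective tissue below the epithelium were mostly negative, with wide spread between pigs. All 14 tested fibroblast markers were negative (median -0.30), as were all 13 markers of smooth muscle and pericytes (median -0.12), and 15 of 16 endothelial markers (median -0.22). None had an unadjusted p under 0.05. COL1A1, a chain of type I collagen, ran from 51.0 to 325 CPM in HHD (median 260) and from 35.0 to 233 CPM in HHD_S (median 173). HHD 5, HHD 7, HHD_S 4 and HHD_S 8 were at or below 77.6 CPM, and no HHD_S pig exceeded the HHD median. The fold change was -0.50 (-1.42 to 0.41), and LUM, a proteoglycan of collagen fibres, had -0.31 (-0.62 to 0.01). Fibroblast scores reached 0.88 (HHD 2) in HHD, where HHD 7 was lowest, and ranged from -1.21 (HHD_S 8) to 0.59 (HHD_S 3) in HHD_S, far more than the difference of the mean scores, 0.154 against -0.155.

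Immune markers leaned in different directions by cell type, by less than their spread between pigs. Of 22 tested markers of T and natural killer cells 20 were positive, with a median of 0.13, and of 17 markers of macrophages and dendritic cells 14 were negative, with a median of -0.17. None of either list had an unadjusted p under 0.05. Mean scores of the T and natural killer list were 0.01 in HHD and 0.07 in HHD_S (SD within groups 0.34). Those of the macrophage and dendritic list were 0.02 and -0.13 (SD within groups 0.29). CD3G, a chain of the T cell receptor complex, had 0.24 (-0.23 to 0.71), CD8A 0.15 (-0.31 to 0.62), and GZMB, a granule protease, 0.40 (-0.51 to 1.30) and 0.06 without HHD_S 7. With limma and quality weights the median of the T cell list was -0.06. CSF1R, the receptor of the macrophage growth factor, had -0.24 (-0.70 to 0.21) and FLT3, a receptor of dendritic cells, -0.39 (-0.80 to 0.03).

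Type I interferon genes, the antiviral programme, had the highest list median, 0.34, which changed sign without 1 library, HHD_S 7. Of 28 genes listed 23 were tested, 21 positive and 2 negative, none at an unadjusted p under 0.05. IFI6 stood at 99.9 CPM in HHD 7, 263 CPM in HHD_S 7 and 180 CPM in HHD_S 8, and between 5.31 and 27.8 CPM in the other 12 pigs. MX1 likewise was at 120, 190 and 100 CPM in those 3 pigs and between 15.0 and 27.6 CPM elsewhere. All 3 have numbers of 2356 or higher, and HHD 6, the remaining compared pig of that range, had 14.8 CPM of IFI6. The list median was -0.16 without HHD_S 7 and 0.91 without HHD 7. It was 0.30 without the pigs numbered 2356 or higher, WD_S 7 among them. Interferon gamma and antigen presentation genes had 3 positive and 16 negative members of 19 tested and a median of -0.09. In the inflammation list (9 positive, 12 negative, median -0.03) DUOX2, an epithelial oxidase, was the 1 member with an unadjusted p under 0.05, at 0.57 (0.08 to 1.06). Over all genes 1.07% were higher at that level.

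**Figure D4:**
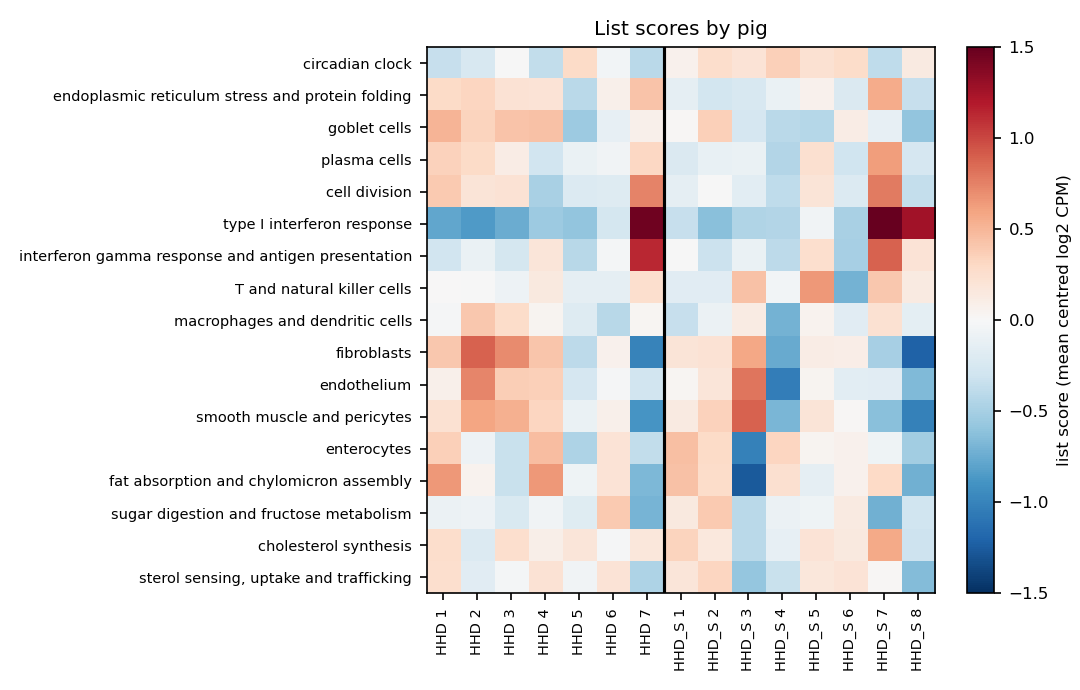
List scores (mean over members of log2 CPM centred per gene, colour scale from -1.5 to 1.5, values beyond it shown at its ends) for 17 lists in each of the 7 HHD and 8 HHD_S pigs, separated by the black line. HHD 7, HHD_S 7 and HHD_S 8 are dark red for type I interferon genes (1.46, 1.71 and 1.26), and the clock row is blue in HHD 7 (-0.40) and HHD_S 7 (-0.38) and red in HHD 5 (0.29).

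Absorptive functions of the epithelium differed by less than their spread. Enterocyte markers had 10 positive and 4 negative members of 14 tested and a median of 0.07, with -0.05 within pool 4. For fat absorption and chylomicron assembly 17 of 19 genes were tested, 6 positive and 11 negative, and the median of -0.08 differed in sign between the pools, 0.12 in pool 3 and -0.44 in pool 4. APOA4, an apolipoprotein of chylomicrons, ran from 244 to 2860 CPM in HHD and from 60.2 to 1377 CPM in HHD_S. HHD 1 and HHD 4 were the highest pigs and HHD_S 3 and HHD_S 8 the lowest, and the fold change of -0.88 (-2.08 to 0.32) became -0.22 without HHD 4. MTTP, which loads fat onto apolipoprotein B, had -0.16 (-0.75 to 0.43), FABP2, a carrier of fatty acids, 0.17 (-0.42 to 0.77), and PLIN2, a coat protein of lipid droplets, -0.44 (-0.93 to 0.06).

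Sugar digestion and fructose metabolism had 10 positive and 7 negative members and a median of 0.05. The transporters were on the positive side, with SLC5A1, the sodium-driven glucose carrier, at 0.23 (-0.28 to 0.75), SLC2A2 at 0.38 (-0.13 to 0.89) and the fructose carrier SLC2A5 at 0.29 (-0.05 to 0.62). G6PC, which releases free glucose from its phosphate, had -0.60 (-1.41 to 0.21). Fatty acid synthesis genes had 4 positive and 10 negative members and a median of -0.10: FADS1, a desaturase of polyunsaturated fatty acids, had -0.25 (-0.54 to 0.04), FASN -0.09 (-0.52 to 0.34) and SCD 0.32 (-0.55 to 1.19). Bile acid genes (3 positive, 7 negative, median -0.13), fatty acid oxidation (7 and 10, median -0.02) and respiratory chain subunits (10 and 14, median -0.02) had no member at an unadjusted p under 0.05. Cell division genes had 3 positive and 15 negative members and a median of -0.11, with -0.27 in pool 3 and 0.23 in pool 4.

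The genes with the smallest p values, among named genes with a mean of 1 or more on the log2 CPM scale, included TEF of the clock list. CIPC, an inhibitor of CLOCK given above, also had a small p, and the genes below have other functions. SLC5A9 (ENSSSCG00000003882, chromosome 6, 163429244 to 163568542), a sodium-driven transporter of mannose and other sugars, stood at 21.1, 15.6, 23.8, 30.0, 22.7, 60.2 and 25.6 CPM in HHD and at 72.7, 85.2, 56.9, 46.6, 66.0, 62.7, 21.5 and 64.1 CPM in HHD_S. The HHD_S pigs other than HHD_S 7 were at or above 46.6 CPM and the HHD pigs other than HHD 6 at or below 30.0 CPM, with those 2 pigs on the opposite sides. The fold change was 1.05 (0.44 to 1.67, edgeR unadjusted p = 0.00173), a ratio of 2.08 (1.36 to 3.18), with 0.93 and 1.29 in pools 3 and 4. Without HHD 6 it was 1.35, and the smallest edgeR adjusted p of that fit was 0.370. HHD 6 was picked for this after its value was seen, which by itself enlarges the difference.

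In 2 genes, both higher in HHD_S, the groups did not overlap at all (0.0147% of genes tested), and in 0 genes was this so in the other direction (0%). MNT (ENSSSCG00000037159, chromosome 12, 48469230 to 48486737), a repressor that competes with MYC for its partner MAX, ran from 11.5 to 17.6 CPM in HHD (median 15.0) and from 17.9 to 29.7 CPM in HHD_S (median 20.5). Its fold change was 0.51 (0.18 to 0.84), with 0.54 and 0.46 in the pools. ERCC3 (ENSSSCG00000015721, chromosome 15, 25189644 to 25224381), a helicase of transcription factor IIH and of nucleotide excision repair, ran from 41.9 to 47.6 CPM and from 48.7 to 54.5 CPM. Its difference was small but even, at 0.17 (0.05 to 0.29), a ratio of 1.12 (1.03 to 1.22), with 0.16 and 0.17 in the pools.

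Other genes at the head of the list overlapped in part. GPATCH2 (chromosome 10, 7615121 to 7797227), a protein with an RNA-associated G-patch domain, had medians of 18.1 CPM in HHD and 30.4 CPM in HHD_S, a fold change of 0.65 (0.28 to 1.02) and 5 HHD_S pigs above every HHD pig. RAPGEFL1, related to exchange factors of RAP GTPases, had 0.43 (0.12 to 0.74), with 7 HHD_S pigs above every HHD pig and HHD_S 7 below them all. PDZD9 and ROBO3, the latter a receptor of axon guidance, were near 2 CPM, at 0.66 (0.31 to 1.02) and 0.88 (0.38 to 1.37), each with 7 HHD_S pigs above every HHD pig. GSDME, a pore-forming protein of pyroptosis, had 1.64 (0.67 to 2.61), with 13.1 CPM in HHD_S 4 and 18.4 CPM in HHD_S 8 against at most 7.01 CPM in the other 13 pigs. SH2D6, a tuft cell marker, had 0.54 (0.15 to 0.92). The tuft cell list had 5 positive and 7 negative members of 12 tested and a median of -0.05. In that list SH2D6 was the 1 higher member at an unadjusted p under 0.05 (1.07% of all genes), and 1 other member was lower (0.741%). LIN7A, a scaffold of cell junctions, had -0.73 (-1.18 to -0.29), with 6 HHD_S pigs below every HHD pig.

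FOLH1B (chromosome 9, 22903997 to 22960648), the single DESeq2 call, rested on HHD 5 at 59.1 CPM and HHD 6 at 94.7 CPM, with the other 13 pigs between 0.435 and 4.13 CPM. FOLH1B is a close copy of FOLH1, the folate hydrolase of the brush border, and unique counts of near-identical copies are uncertain. Its edgeR fold change was -3.93 (-5.94 to -1.91) and -2.02 without HHD 6. VNN2, a pantetheine hydrolase, had the smallest p of all tested genes with a symbol (edgeR unadjusted p = 0.000237), at 1.23 to 2.01 CPM in HHD and 0.738 to 1.42 CPM in HHD_S, with -0.65 (-0.96 to -0.34) and 7 HHD_S pigs below every HHD pig.

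**Figure D5:**
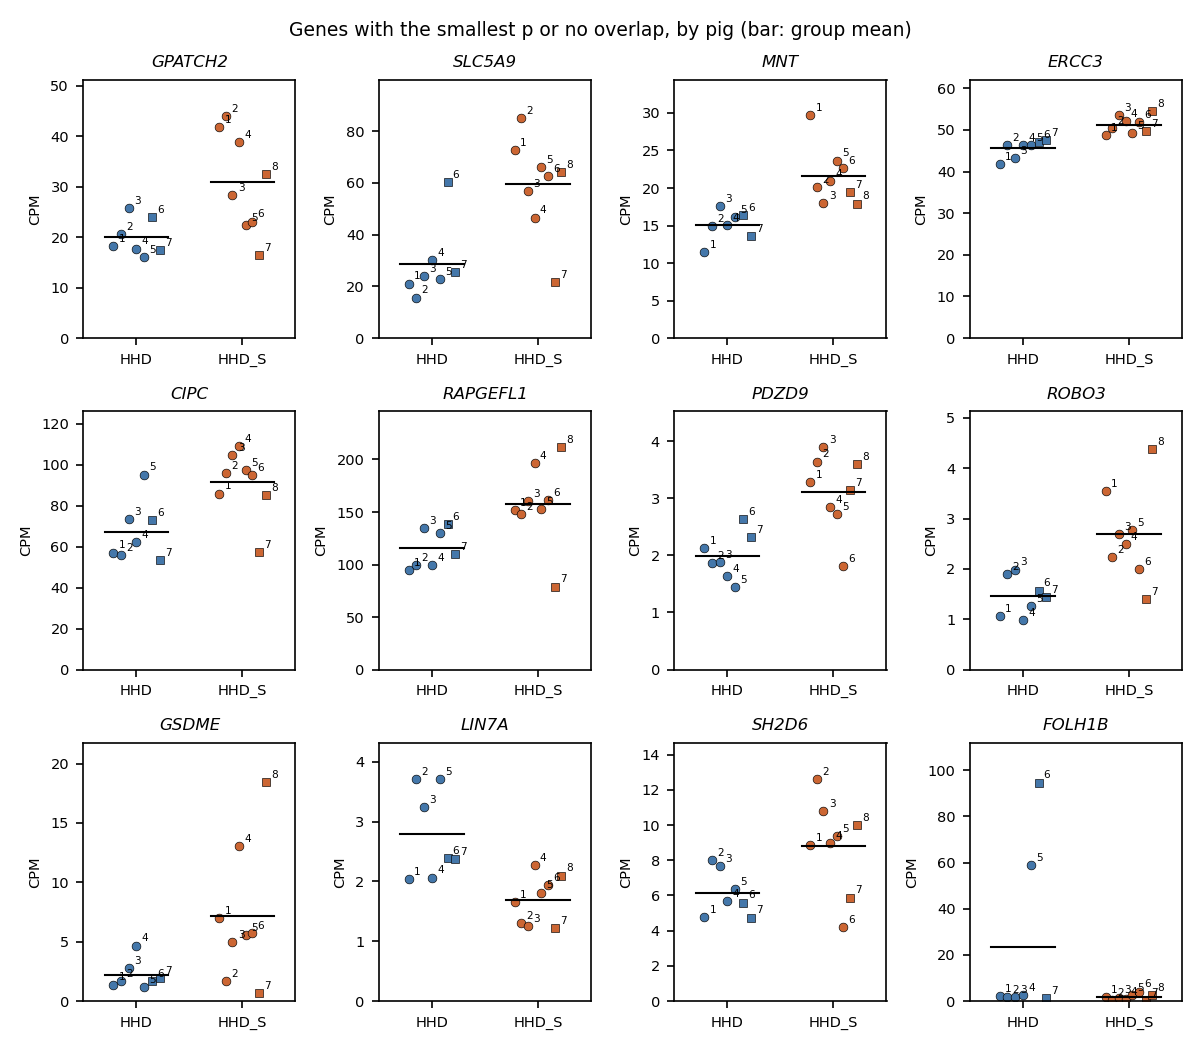
CPM (y axes, from 0) of 12 genes with the smallest p values or with no overlap between groups, in each HHD pig (blue) and HHD_S pig (orange), numbered by replicate; squares are pigs numbered 2356 or higher and bars are group means. MNT and ERCC3 have every HHD_S pig above every HHD pig, and FOLH1B is high only in HHD 5 (59.1 CPM) and HHD 6 (94.7 CPM).

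The difference between drug and no drug was also set against the library pool. For treatment by pool edgeR made 0 calls among 13626 genes and gave 294 unadjusted p values under 0.05, and pool 4 held only 2 HHD pigs. A p that misses the threshold does not show that the pools act alike.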

How the data were processed

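Jejunal mucosa RNA was sequenced in 22 libraries, 1 per pig, of which 15 are compared. Per the labels' protocols, libraries were made with a TruSeq kit, read as single reads of 150 bases and mapped to Sscrofa11.1 with a CLC workbench. The workbench version and the mapping options were not given in the sources used here. Per the file headers, the authors deposited unique exon read counts per gene, not normalized. Of 24358 gene IDs, 17332 were named in the files, 1073 through a table of gene names, and 5953 had no name. Total counts were 17.8 to 31.6 M in the compared libraries. The labels give neither the sex of each pig nor the hour of collection, and age per pig was not used here. Expression of Y-linked genes entered 1 alternative fit as a term. In edgeR that term had 20 calls among 13626 genes and 2028 genes at an unadjusted p under 0.05. With it in the fit, atorvastatin had 0 calls and 244 such genes.

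Genes were kept by filterByExpr (minimum count 10) and fitted with edgeR 4.0.16 in R 4.3.3 (quasi-likelihood, robust, TMM), with all 3 groups and library pool as terms, leaving 18 residual degrees of freedom. The Benjamini-Hochberg threshold was 0.05, and intervals are 95%. The fit was tested on simulated data. DESeq2 1.42.0, limma 3.58.1 and sva 3.50.0 served alternatives: 31 in all, among them other scalings, filters, single pools, terms for Y-linked expression and pig number, and leaving out each library. Leaving out the pigs numbered 2356 or higher was chosen after seeing the data. No 2 libraries agreed within sampling noise: the smallest chi-square per gene over 231 pairs was 25.2. Named genes were the 12 with the smallest p among named genes whose mean log2 CPM was 1 or more, the core members and the member with the smallest p of each of 41 lists, and genes whose groups did not overlap. A few items are not reported here. VNN2 was named after its values were seen. Members and lists were chosen with earlier results of these data known. Gene positions are RefSeq's on Sscrofa11.1. Pigs are the replicates, and the p-values measure the spread between them.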

Additional observations from a re-analysis of the deposited data

Results flagged for a closer look

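In 28 of 186 tests of the highest or lowest pig within a group, over the genes named above, 1 pig stood apart from the others of its group by more than Dixon's 95% limit. For independent, normally distributed values chance flags about 1 in 20 groups, 5%, or 9.3 of these. CPM of related genes in the same pigs are not independent and need not be normal, so 9.3 is no valid expectation for this set.

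HHD_S 7 was the highest of its group for HSPA5 (1371 CPM), HYOU1 (406 CPM), HSP90B1 (908 CPM), PDIA4 (616 CPM) and XBP1 (403 CPM), all of the folding list. It was also the highest for JCHAIN (2648 CPM), MTTP (2200 CPM), IDI1 (71.7 CPM) and NSDHL (30.4 CPM), and the lowest for CIPC (57.2 CPM). HHD 5 was the highest HHD pig for DBP (34.8 CPM), NR1D2 (171 CPM) and TEF (11.3 CPM) and the lowest for HSPA5 (302 CPM). HHD 7 was the highest HHD pig for IFI6 (99.9 CPM), MX1 (120 CPM), CD8A (117 CPM) and GZMB (190 CPM).

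HHD 6 stood above its group for SLC5A1 (3877 CPM) and SLC5A9 (60.2 CPM), HHD 1 for INSIG1 (235 CPM) and HHD 3 for SREBF2 (148 CPM). Within HHD_S, pig 8 was the highest for ABCG1 (27.6 CPM) and TRIT1 (56.7 CPM). Pig 4 was the highest for DDIT3 (20.6 CPM) and PDSS1 (27.2 CPM), pig 3 for KLF2 (14.6 CPM) and pig 2 for SLC2A5 (159 CPM).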

How the results depend on the processing

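The edgeR call count of 0 was also found in 30 of 31 alternatives, and DESeq2 called 1 gene (smallest adjusted p 0.0307). Leaving out 1 library gave 0 to 0 calls in all 15 fits, with 156 (without HHD_S 1) to 601 (without HHD_S 7) genes at an unadjusted p under 0.05 against 247. The smallest adjusted p of those fits was 0.370 without HHD 6, 0.521 without HHD_S 7 and 0.706 without HHD 5. The unadjusted count was 1176 with limma, 753 without the pigs numbered 2356 or higher (smallest adjusted p 0.118), 397 in pool 4 alone, 390 with 2 surrogate variables and 371 with no filter. It was 178 with the WD_S pigs left out of the fit, and 50.6% of those genes were higher in HHD_S. Of the 62 counts of genes under these settings, called or at an unadjusted p under 0.05, 11 moved by over 1.5 times. Scaling by total counts moved the share of those genes that were higher in HHD_S from 59.1% to 70.7%, and it was 47.6% in pool 3 and 48.6% in pool 4. Of 1344 list medians under other settings 171 had another sign. None moved by more than the SD of the list scores between pigs, but that limit was wide and could hardly be passed. For type I interferon genes it was 0.86, so medians from -0.16 to 1.06 against 0.34 still counted as not moved. Of 4978 values of named genes 236 had another sign and 161 moved by more than 1 standard error of the fold change, and FOLH1B passed the threshold with DESeq2 only. The cause was not tested. No paired analysis was possible because the replicate numbers follow accession order and pair no pigs across groups.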

Other observations

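Enteroendocrine markers had 11 positive and 4 negative members of 15 tested (median 0.04, 1 higher member at an unadjusted p under 0.05), and markers of enteric neurons and glia 6 and 5 of 11 (median 0.05, 1 higher member at that level). Crypt stem and Paneth cell markers had 4 positive and 9 negative members (median -0.13), and B cell markers 7 and 7 (median -0.02). NRF2 targets had 8 and 6 (median 0.00, 1 lower member). Mast cell, eosinophil and neutrophil markers had 4 and 3 (median 0.01), and adipocyte markers 3 and 3 (median 0.03, 1 higher member). Over all genes tested 1.07% were higher and 0.741% lower at an unadjusted p under 0.05.

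Of 13 pancreas genes 3 were tested, with a summed level of 2.45 to 6.36 CPM. Of 8 genes that mark duodenum or ileum 7 were tested, with 3 positive and 4 negative members (median -0.07). In that list 1 member was higher at an unadjusted p under 0.05, against 1.07% of all genes. Of 10 markers of red blood cells and platelets 4 were tested, with 1 positive and 3 negative members and a median of -0.46, and their scores were lowest in HHD_S 7 (-1.74) and HHD_S 8 (-1.32).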
